A study of Homo sapiens with 8 samples.

Results

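The 50 genes described here act in G2 phase, mitosis and cytokinesis, and they were taken from a list of textbook members of these processes. The list was chosen with earlier results of these data known, so its counts below are descriptive. A gene was represented by every array probe set that the platform annotation ties to it alone. This gave 94 of the 41091 single-gene probe sets and 50 of the 19775 genes that have one. The brightest probe set of each gene entered the test with 13584 genes in all, and all 50 passed the filter on dim probe sets. The cells were A549, an established human lung adenocarcinoma line. A small interfering RNA (siRNA), either a control or one against steroid receptor coactivator 1 (SRC-1), was introduced with DharmaFECT 1. SRC-1 is the nuclear receptor coactivator encoded by NCOA1. Transfected cells were kept for 36 h in medium with 10% dialyzed serum, which is depleted of small molecules, and then received glucose-free or glucose-containing DMEM with the same serum. Each siRNA was thus combined with each medium, which gave 4 groups of 2 arrays, named as biological replicates. All groups share the transfection and the dialyzed serum, and no untransfected cells were included. The glucose concentration and the length of the last step are not given in the sources used here.

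Cells enter mitosis when CDK1, bound to A- and B-type cyclins, is freed from inhibitory phosphorylation by CDC25 phosphatases. Aurora and Polo-like kinases, kinesin motors and kinetochores then build the spindle, the checkpoint holds anaphase until every chromosome is attached, and the anaphase-promoting complex with CDC20 releases separase. Many of these genes are transcribed late in the cycle, under the MuvB complex with B-MYB and FOXM1, and are repressed by the p53-p21 axis through the DREAM complex. CCAAT boxes, bound by NF-Y, and the cell cycle genes homology region (CHR), bound by MuvB, are known elements of such promoters.

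RefSeq promoters of assembly GRCh38.p14, from 250 bases before to 50 after the annotated gene start, were matched for 42 of the 50 genes. No window was matched for AURKA, BIRC5, BUB3, FOXM1, PBK, TPX2, TTK and UBE2C. The arrays did not measure these promoters, and the motif counts describe sequence only. CCAAT, searched on both strands, occurred in 31 of the 42 (73.8%), against 36.0% of 10911 promoters of tested genes and 35.7% of all 27305 promoters. The CHR core, searched as TTTGAA or TTCGAA on both strands, occurred in 30 of the 42 (71.4%), against 11.2% of the promoters of tested genes and 16.6% of all. TTTGAA occurred in 29 of these and TTCGAA in 2, with both in NDC80. Other spellings of the CHR were not searched, so a promoter counted without it may still hold one. Matches may overlap, as forward and reverse CCAAT do in HMMR and PTTG1. Both elements were present in 24 of the 42 (57.1%), against 4.69% and 6.58%. At least 2 CCAAT boxes were present in 19 of the 42 (45.2%), against 13.2% and 11.3%.

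Windows of 150 bases that end at the base before the gene start are shown for 6 genes. KIF11 (chr10:92592980-92593129, plus strand) and CCNA2 (chr4:121823884-121824033, minus strand) are among the 3 largest glucose differences below. SPC25, also among these 3, is not shown. It holds CCAAT from -88 to -84 and from -56 to -52, and TTTGAA from -247 to -242 and across the gene start, from -3 to 3. CCNB1 (chr5:69167000-69167149, plus strand) is shown as the main mitotic cyclin. CDC20 (chr1:43358831-43358980, plus strand), CENPA (chr2:26785906-26786055, plus strand) and KIF2C (chr1:44739687-44739836, plus strand) are the 3 genes that did not pass the glucose test. Each runs 5′ to 3′ towards its gene, with matches to CCAAT or TTTGAA on either strand in capitals.
KIF11: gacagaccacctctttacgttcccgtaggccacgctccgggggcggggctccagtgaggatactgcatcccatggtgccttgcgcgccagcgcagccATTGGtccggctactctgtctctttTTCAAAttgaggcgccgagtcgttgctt
CCNA2: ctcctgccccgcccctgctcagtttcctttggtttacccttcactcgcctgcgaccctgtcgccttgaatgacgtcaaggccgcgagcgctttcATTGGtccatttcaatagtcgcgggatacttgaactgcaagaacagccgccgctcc
CCNB1: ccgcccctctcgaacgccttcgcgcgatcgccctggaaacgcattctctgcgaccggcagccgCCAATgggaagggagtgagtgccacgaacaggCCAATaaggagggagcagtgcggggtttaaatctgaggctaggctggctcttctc
CDC20: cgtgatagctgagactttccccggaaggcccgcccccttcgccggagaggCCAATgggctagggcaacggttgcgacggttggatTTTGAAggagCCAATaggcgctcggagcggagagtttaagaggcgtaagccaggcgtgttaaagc
CENPA: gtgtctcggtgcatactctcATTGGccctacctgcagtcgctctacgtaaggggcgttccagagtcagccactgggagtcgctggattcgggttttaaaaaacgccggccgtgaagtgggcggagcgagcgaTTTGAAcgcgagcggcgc
KIF2C: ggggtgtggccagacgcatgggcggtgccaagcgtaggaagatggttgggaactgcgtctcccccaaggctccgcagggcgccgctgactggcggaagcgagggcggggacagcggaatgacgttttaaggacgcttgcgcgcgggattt

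Positions are counted back from the gene start, so that the last base shown is -1. KIF11 holds a reverse CCAAT from -53 to -49 and a reverse TTTGAA from -28 to -23. CENPA holds a reverse CCAAT from -130 to -126 and TTTGAA from -18 to -13. CDC20 holds CCAAT from -100 to -96 and from -55 to -51, with TTTGAA from -65 to -60 between them. CCNB1 holds CCAAT from -87 to -83 and from -55 to -51, and CCNA2 holds a reverse CCAAT from -56 to -52. Neither window holds TTTGAA or TTCGAA. That does not show a CHR to be absent from CCNB1 or CCNA2, since only these spellings were searched. In KIF2C none of the searched letters occurred in the window. KIF11, with the largest glucose difference below, and CENPA, with the lowest and not called, both hold both elements. A tie of either element to the size of the response was not tested. Over the 42 genes, the median log2 glucose difference was 0.56 for those with TTTGAA or TTCGAA and 0.48 for those with neither. The latter may include genes with other spellings of the CHR. The median was 0.50 with CCAAT and 0.64 without, and the ranges overlapped, from -0.12 to 1.23 with either element.

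The deposited values were taken as log2 signals, with the base inferred. The median signal of an array was 4.97 to 5.01, and the signals of paired arrays within a group correlated at 0.997 to 0.998. Within a group the SD of the 50 genes had a median of 0.049 and a maximum of 0.27 log2 units (n = 2 arrays). The targeted gene NCOA1 had signals of 8.24 to 8.60 on the 4 control siRNA arrays and of 5.09 to 5.47 on the 4 SRC-1 siRNA arrays, in its brightest probe set. The 5 epithelial markers averaged 14.32 (KRT18), 12.99 (KRT8), 10.6 (KRT19), 9.63 (CDH1) and 8.09 (EPCAM) in their brightest probe sets. Of these 5, 3 were called higher with glucose in the average, where 29.5% of all genes tested were. Among markers of other cell types, the brightest probe sets of PTPRC (3.05), ALB (3.22) and CDH5 (3.52) lay below the filter of 4.80. The other 6 of 9 markers of other cell types lay above the filter, with means of 5.80 (PECAM1), 5.76 (DES), 5.73 (MYOD1), 5.50 (CD3E), 5.47 (VWF) and 5.38 (GFAP), and none of the 6 was called in a glucose contrast. Without detection calls these low levels show neither presence nor absence. The 3' minus 5' signal of GAPDH, a measure of RNA integrity, averaged 0.16 with and 0.13 without glucose (exact permutation p = 0.0571, two-sided), and that of ACTB 0.57 and 0.48 (exact permutation p = 0.143). The part of this small shift in the glucose differences was not tested.

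Most of the G2/M and mitosis genes were higher with glucose, whichever siRNA the cells had received. A gene was called where the adjusted p of the limma fit, over all 13584 genes, was below 0.05. With control siRNA 43 of the 50 were higher with glucose and 0 were lower, where 23.6% of all genes tested were called higher and 21.6% lower. With SRC-1 siRNA 45 of the 50 were higher and 0 were lower, where 24.6% of all genes were called higher and 20% lower. Averaged over both siRNAs 47 of the 50 were higher and 0 were lower, against 29.5% and 26.2% of all genes. The median log2 difference of the 50 genes was 0.52 with control siRNA, 0.54 with SRC-1 siRNA and 0.53 averaged, while the median over all genes tested was -0.00035 in the average. A larger share of cells in G2 and mitosis and more RNA of these genes per cell cannot be told apart in such bulk RNA.

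Most of these rises were below 2-fold. In the average, 4 genes were called and at least 2-fold higher (2.21% of all genes tested were), 17 were at least 1.5-fold but under 2-fold higher, 26 were called with a smaller difference, and 3 were not called. For 47 of the 50 all 4 arrays with glucose lay above all 4 without, which held for 28.6% of all genes tested. For these 47 genes an exact permutation of 4 arrays against 4 gives its smallest two-sided p, 0.0286. That p follows from the separation itself and adds nothing to it. The mean signal of the 50 genes on each array shows the same split. It was 9.80 and 9.83 with control siRNA without glucose, 9.77 and 9.85 with SRC-1 siRNA without glucose, 10.35 and 10.38 with control siRNA and glucose, and 10.41 and 10.36 with SRC-1 siRNA and glucose. With 2 arrays a group, a permutation test within 1 siRNA cannot go below p = 0.333, so calls within an siRNA rest on the spread that the limma fit shares over genes.

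**Figure D1:**
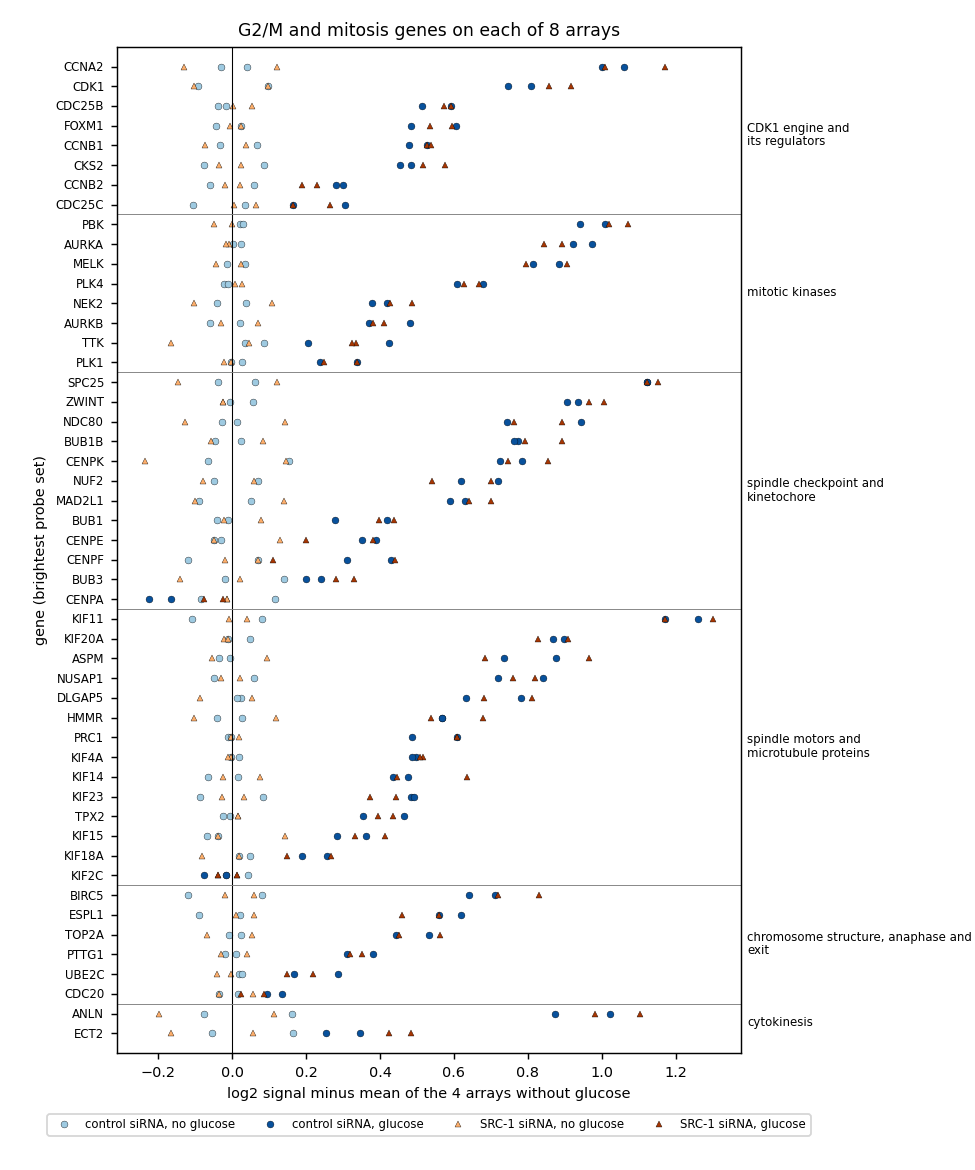
Log2 signal of the 50 genes on each of 8 arrays (x axis), minus the gene's mean over the 4 arrays without glucose, with genes in rows grouped by role. Circles are control siRNA and triangles SRC-1 siRNA, dark with glucose and pale without. The dark symbols lie to the right of the pale ones in 47 genes, while CENPA, KIF2C and CDC20 overlap and circles and triangles are mixed.

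Among the 8 genes of the CDK1 engine, all 8 were called higher with glucose in the average, where 29.5% of all genes tested were. Their log2 differences ran from 0.22 to 1.06. CCNA2, the cyclin of S phase and mitotic entry, had signals of 9.44 and 9.51 with control siRNA without glucose and 10.53 and 10.47 with glucose, and of 9.34 and 9.59 against 10.64 and 10.48 with SRC-1 siRNA. Every array with glucose was about a log2 unit above every array without, and the averaged difference was 1.06 (SE 0.069, limma adjusted p = 3.96e-06). CDK1, the kinase that drives entry into mitosis, rose from 11.20 and 11.39 to 12.04 and 12.10 with control siRNA and from 11.19 and 11.39 to 12.21 and 12.15 with SRC-1 siRNA. Its groups by glucose did not overlap, and the averaged difference was 0.83 (SE 0.064, adjusted p = 9.92e-06).

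The B-type cyclins had smaller differences than CCNA2. CCNB1, the main partner of CDK1 in mitosis, had signals of 11.46 and 11.56 without and 11.97 and 12.02 with glucose under control siRNA, and of 11.42 and 11.53 against 12.02 and 12.03 under SRC-1 siRNA. The arrays separated by glucose, with an averaged difference of 0.52 (SE 0.050, adjusted p = 3.81e-05). CCNB2, the second B-type cyclin, differed by 0.25 (SE 0.049, adjusted p = 0.00217). The 95% intervals of CCNA2 (0.90 to 1.22) and CCNB2 (0.14 to 0.36) lay far apart, but differences between genes were not tested. CDC25B, a phosphatase that activates CDK1, differed by 0.57 (SE 0.046), CKS2, a small CDK-binding subunit, by 0.50 (SE 0.053), and both were called. FOXM1, the transcription factor of late cell cycle genes, went from 9.71 and 9.78 to 10.24 and 10.36 with control siRNA and from 9.75 and 9.78 to 10.29 and 10.35 with SRC-1 siRNA. No array with glucose overlapped one without, and the averaged difference of FOXM1 was 0.56 (SE 0.050, adjusted p = 2.37e-05). CDC25C, the phosphatase of mitotic onset, had 7.57 and 7.43 against 7.84 and 7.70 with control siRNA and 7.60 and 7.54 against 7.80 and 7.70 with SRC-1 siRNA. Its averaged difference was smaller, 0.22 (SE 0.057, adjusted p = 0.00939), and it was not called with SRC-1 siRNA alone (0.18, adjusted p = 0.107).

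All 8 mitotic kinases were called higher with glucose in the average (29.5% of all genes tested were), from 0.29 for PLK1 to 1.01 for PBK. PBK, a mitotic MAPKK-like kinase, had signals of 10.80 and 10.81 without and 11.72 and 11.79 with glucose under control siRNA, and of 10.73 and 10.78 against 11.85 and 11.80 under SRC-1 siRNA. The gap of about a log2 unit far exceeded the spread within groups (difference 1.01, SE 0.046, adjusted p = 6.42e-07). AURKA, the Aurora kinase of the spindle poles, went from 10.75 and 10.77 to 11.72 and 11.67 with control siRNA and from 10.74 and 10.73 to 11.64 and 11.59 with SRC-1 siRNA. Its averaged difference was 0.91 (SE 0.044, adjusted p = 8.44e-07).

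AURKB, the Aurora kinase of the chromosomal passenger complex, had signals of 9.02 and 9.10 against 9.45 and 9.56 with control siRNA, and of 9.15 and 9.05 against 9.46 and 9.49 with SRC-1 siRNA. The arrays again separated by glucose, with an averaged difference of 0.41 (95% interval 0.29 to 0.53, adjusted p = 0.000176), beside an interval of 0.81 to 1.01 for AURKA. PLK1, the Polo-like kinase of mitotic entry and spindle assembly, had 7.12 and 7.09 against 7.43 and 7.33 with control siRNA and 7.09 and 7.07 against 7.34 and 7.43 with SRC-1 siRNA, a difference of 0.29 (SE 0.048, adjusted p = 0.000877). PLK4, which starts centriole duplication, differed by 0.65 (SE 0.044). MELK, a kinase of proliferating cells, differed by 0.85 (SE 0.051), NEK2, which splits centrosomes, by 0.43 (SE 0.059) and the checkpoint kinase TTK by 0.32 (SE 0.068). TTK had 9.03 and 8.98 against 9.15 and 9.37 with control siRNA and 8.78 and 8.99 against 9.28 and 9.27 with SRC-1 siRNA, so that its arrays separated by glucose. All 4 were called in the average, and TTK alone among the kinases was not called with control siRNA (0.26, adjusted p = 0.0581).

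Of the 12 checkpoint and kinetochore genes 11 were called higher with glucose in the average, where 29.5% of all genes tested were. The median over the 12 was 0.64. SPC25, a subunit of the NDC80 complex that holds microtubules, had signals of 8.0 and 8.10 without and 9.16 and 9.16 with glucose under control siRNA, and of 7.89 and 8.16 against 9.16 and 9.19 under SRC-1 siRNA. All 4 arrays with glucose lay within 9.16 to 9.19, and the averaged difference was 1.13 (SE 0.065, adjusted p = 2.09e-06). The other subunits of that complex on the list, NDC80 (0.84, SE 0.075) and NUF2 (0.64, SE 0.062), were also called. ZWINT, which links the outer kinetochore to the checkpoint, went from 10.78 and 10.84 to 11.69 and 11.72 with control siRNA and from 10.76 and 10.76 to 11.75 and 11.79 with SRC-1 siRNA. The groups were well separated (difference 0.95, SE 0.044, adjusted p = 7.04e-07).

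The checkpoint genes spanned a wide range. BUB1B, which encodes the inhibitor BUBR1, differed by 0.81 (SE 0.052) and MAD2L1, the MAD2 inhibitor of CDC20, by 0.64 (SE 0.065). BUB1, the checkpoint kinase at kinetochores, had signals of 9.26 and 9.29 against 9.58 and 9.72 with control siRNA and of 9.28 and 9.38 against 9.70 and 9.74 with SRC-1 siRNA, with an averaged difference of 0.38 (SE 0.053, adjusted p = 0.000311). BUB3, the scaffold of the BUB proteins, had 11.81 and 11.97 against 12.03 and 12.07 with control siRNA and 11.69 and 11.85 against 12.11 and 12.16 with SRC-1 siRNA. Its arrays separated by glucose only narrowly, and the averaged difference of 0.26 (SE 0.059, adjusted p = 0.0049) depended on the probe set, as given below. CENPK, of the inner kinetochore, differed by 0.78 (SE 0.090), the motor CENPE by 0.33 (SE 0.060) and CENPF by 0.32 (SE 0.082), all called.

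CENPA, the histone H3 variant that marks centromeres, did not share the rise. Its signals were 9.30 and 9.10 without and 9.02 and 8.96 with glucose under control siRNA, and 9.17 and 9.17 without and 9.11 and 9.16 with glucose under SRC-1 siRNA. The arrays with control siRNA and glucose were the lowest, and the 4 arrays with glucose overlapped the 4 without. The averaged difference was -0.12 (95% interval -0.25 to 0.0038, adjusted p = 0.0916), and that with control siRNA was -0.21 (SE 0.078, adjusted p = 0.0548). Without the second array of control siRNA without glucose these became -0.17 (adjusted p = 0.0286) and -0.31 (adjusted p = 0.0225), both past the threshold. The control siRNA difference also passed with a filter at the 60th percentile (adjusted p = 0.0314), and with a prior that follows mean expression (adjusted p = 0.0276). CENPA was read by a single probe set, whose _x_at name marks probes that can bind other transcripts. The same holds for FOXM1 and PTTG1, which were called higher.

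**Figure D2:**
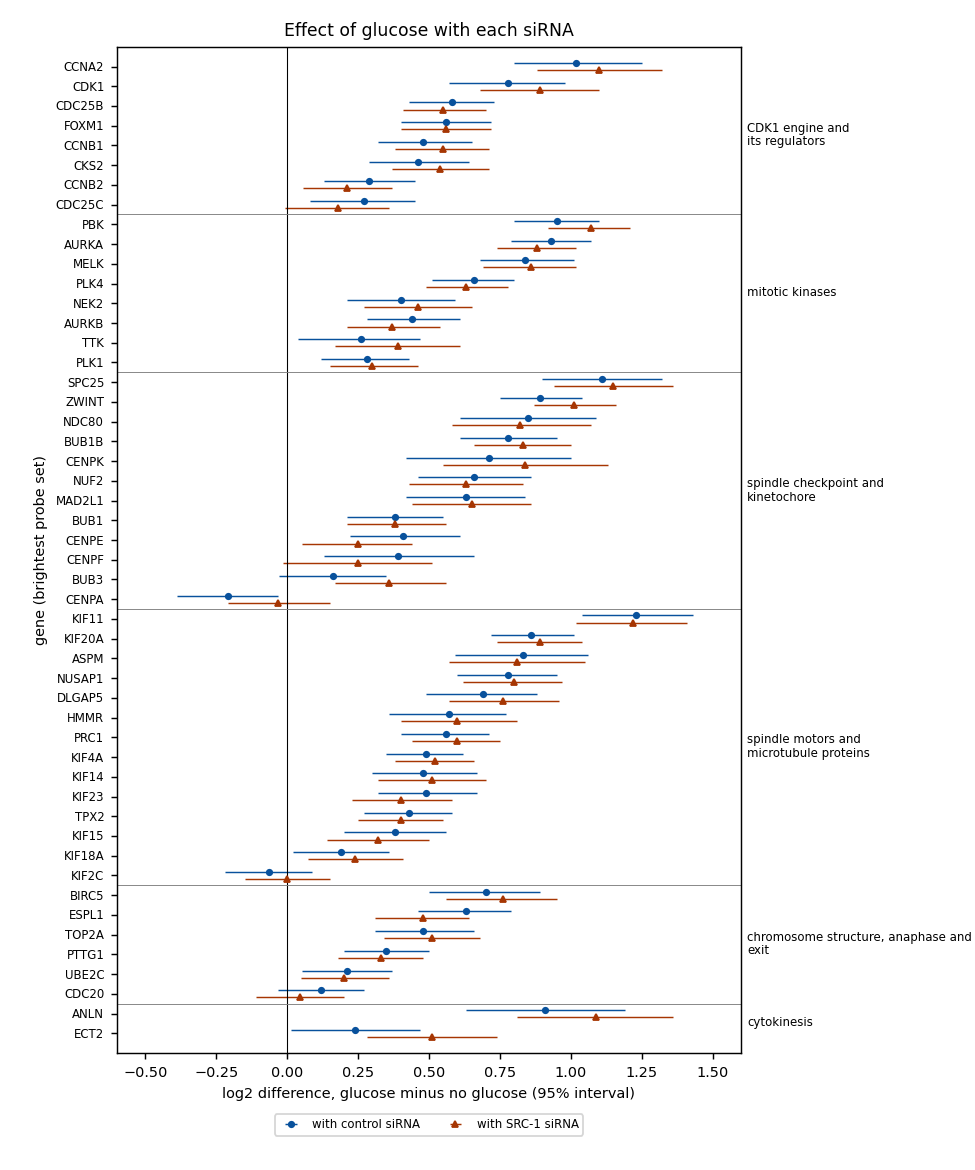
Log2 difference between arrays with and without glucose for each of the 50 genes (points) with 95% intervals from the limma fit (lines), in blue circles for control siRNA and brown triangles for SRC-1 siRNA. KIF11 has the largest difference with both (1.23 and 1.22) and CENPA the lowest (-0.21 and -0.033), and the intervals for the 2 siRNAs overlap in every gene.

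Among the 14 spindle motors and microtubule proteins 13 were called higher with glucose in the average, where 29.5% of all genes tested were. KIF11, the plus-end motor Eg5 that pushes spindle poles apart, had signals of 8.93 and 9.12 without and 10.30 and 10.21 with glucose under control siRNA, and of 9.03 and 9.08 against 10.34 and 10.21 under SRC-1 siRNA. The lowest array with glucose was more than a log2 unit above the highest without, and the averaged difference of 1.23 (SE 0.060, adjusted p = 9.15e-07) was the largest of the 50. KIF20A, a motor of the central spindle, went from 9.03 and 8.97 to 9.85 and 9.88 with control siRNA and from 8.96 and 8.97 to 9.89 and 9.81 with SRC-1 siRNA. Its arrays were tightly grouped, with a difference of 0.88 (SE 0.046, adjusted p = 1.25e-06).

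KIF15, which can share the pole-separating work of KIF11, had a smaller difference. Its signals were 7.12 and 7.09 against 7.52 and 7.44 with control siRNA and 7.30 and 7.12 against 7.57 and 7.49 with SRC-1 siRNA, with an averaged difference of 0.35 (SE 0.056, adjusted p = 0.000753). KIF14, a motor of the midbody, had 9.76 and 9.84 against 10.30 and 10.26 with control siRNA and 9.80 and 9.90 against 10.46 and 10.27 with SRC-1 siRNA. The groups did not overlap, and the difference was 0.50 (SE 0.058, adjusted p = 0.000109). The chromosome-arm motor KIF4A (0.50, SE 0.042), the central-spindle motor KIF23 (0.45, SE 0.055) and its bundling partner PRC1 (0.58, SE 0.047) were called, as was KIF18A, which dampens chromosome movement (0.21, SE 0.052).

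Of the non-motor spindle proteins, ASPM of the spindle poles differed by 0.82 (SE 0.074), NUSAP1 by 0.79 (SE 0.053), DLGAP5 by 0.73 (SE 0.060), HMMR by 0.59 (SE 0.063) and TPX2, the activator of AURKA, by 0.41 (SE 0.047). All 5 were called. KIF2C, the depolymerase MCAK that corrects wrong attachments, was the exception. Its signals were 9.66 and 9.60 without and 9.54 and 9.60 with glucose under control siRNA, and 9.63 and 9.58 without and 9.58 and 9.63 with glucose under SRC-1 siRNA. All 8 arrays of KIF2C lay between 9.54 and 9.66, and the averaged difference was -0.032 (95% interval -0.14 to 0.076, adjusted p = 0.602).

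Of the 6 genes of chromosome structure and anaphase 5 were called higher with glucose in the average, where 29.5% of all genes tested were. BIRC5, the passenger protein survivin, differed by 0.73 (SE 0.061) and ESPL1, the protease separase, by 0.55 (SE 0.051). ESPL1 had signals of 8.46 and 8.35 against 9.0 and 9.06 with control siRNA and of 8.50 and 8.45 against 9.0 and 8.90 with SRC-1 siRNA. Its inhibitor securin, PTTG1, differed by 0.34 (SE 0.046). TOP2A, the topoisomerase that untangles sister chromatids, had 11.67 and 11.64 against 12.18 and 12.09 with control siRNA and 11.58 and 11.70 against 12.21 and 12.10 with SRC-1 siRNA. The arrays separated by glucose, and the difference was 0.50 (SE 0.053, adjusted p = 6.62e-05).

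The partners of the anaphase-promoting complex on the list had small differences. UBE2C, its ubiquitin-conjugating enzyme, had signals of 10.87 and 10.88 against 11.14 and 11.02 with control siRNA and of 10.81 and 10.85 against 11.07 and 11.00 with SRC-1 siRNA. The arrays separated by glucose, with an averaged difference of 0.21 (SE 0.048, adjusted p = 0.00588). CDC20, the activator that the checkpoint restrains, had 10.64 and 10.69 against 10.77 and 10.81 with control siRNA and 10.73 and 10.64 against 10.70 and 10.76 with SRC-1 siRNA. Its groups overlapped under SRC-1 siRNA, and the averaged difference was 0.083 (95% interval -0.025 to 0.19, adjusted p = 0.17). Both cytokinesis genes were called higher in the average, where 29.5% of all genes tested were. ANLN, the anillin scaffold of the contractile ring, went from 10.40 and 10.64 to 11.35 and 11.50 with control siRNA and from 10.28 and 10.59 to 11.58 and 11.46 with SRC-1 siRNA. Its difference of 1.00 (SE 0.086, adjusted p = 1.95e-05) was large against a spread of up to 0.22 (SD) within a group. ECT2, the exchange factor that activates RhoA at the equator, had 11.13 and 11.35 against 11.44 and 11.53 with control siRNA and 11.02 and 11.24 against 11.67 and 11.61 with SRC-1 siRNA, with an averaged difference of 0.38 (SE 0.071, adjusted p = 0.00176).

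The 2 siRNAs gave the same calls for most genes. In both, 41 genes were called higher, 2 only with control siRNA (CDC25C and CENPF), 4 only with SRC-1 siRNA (BUB3, ECT2, KIF18A and TTK), and 3 with neither (CDC20, CENPA and KIF2C). None of these 6 genes differed between the siRNAs in the test of that difference, given below. Several calls with a single siRNA lay near the threshold and were lost when 1 array was left out. With control siRNA, leaving out the first array without glucose removed the call of UBE2C (0.20, adjusted p = 0.123). Leaving out the second removed those of UBE2C (0.22, adjusted p = 0.103), CCNB2 (0.22, adjusted p = 0.0656), CDC25C (0.20, adjusted p = 0.151), CENPF (0.30, adjusted p = 0.14) and PLK1 (0.26, adjusted p = 0.0528), and brought in ECT2 (0.36, adjusted p = 0.0406). Leaving out the first array with glucose removed UBE2C (0.15, adjusted p = 0.177), CDC25C (0.20, adjusted p = 0.142) and PLK1 (0.23, adjusted p = 0.0592) and brought in TTK (0.36, adjusted p = 0.0273). Leaving out the second removed CENPF (0.33, adjusted p = 0.111).

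With SRC-1 siRNA, leaving out the first array without glucose removed the calls of BUB3 (0.28, adjusted p = 0.059), CCNB2 (0.19, adjusted p = 0.144), CENPE (0.16, adjusted p = 0.252), KIF18A (0.19, adjusted p = 0.153), TTK (0.28, adjusted p = 0.0768) and UBE2C (0.19, adjusted p = 0.154). Leaving out the second removed CCNB2 (0.23, adjusted p = 0.0844), KIF15 (0.23, adjusted p = 0.0824) and UBE2C (0.22, adjusted p = 0.0958). Leaving out the first array with glucose removed CCNB2 (0.19, adjusted p = 0.135), CENPE (0.16, adjusted p = 0.242), KIF15 (0.28, adjusted p = 0.0662), KIF18A (0.18, adjusted p = 0.147) and UBE2C (0.17, adjusted p = 0.164). Leaving out the second removed CCNB2 (0.24, adjusted p = 0.0702) and UBE2C (0.24, adjusted p = 0.0644) and brought in CENPF (0.41, adjusted p = 0.0216). In the average, leaving out an array removed none of the 47 calls. Arrays of the other siRNA, which enter through the shared spread, tipped UBE2C and TTK with control siRNA (adjusted p = 0.0534 and 0.0464) and UBE2C (0.058) and CENPE (0.057 to 0.0645) with SRC-1 siRNA.

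SRC-1 siRNA did not change any of the 50 genes past the test. With glucose 0 of 50 were called (0.00736% of all genes tested were called either way), and without glucose 0 of 50 (0.0221%). Averaged over media 0 of 50 were called (0.0294%), and in the interaction of glucose and siRNA 0 of 50 (0%). Without adjustment, 0 of the 50 genes had a limma p below 0.05 in any of these 4 contrasts, where 5.75%, 3.19%, 4.96% and 3.42% of all genes did, in the same order. The smallest adjusted p among the 50 were 0.918, 0.999, 1 and 0.999. In 0 of the 50 did all 4 SRC-1 siRNA arrays lie above all 4 control arrays (0.449% of all genes tested), and in 0 of the 50 below them (0.427%).

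The 95% intervals give, for 1 gene at a time, the size of effect that the arrays leave possible. They rest on 2 arrays a group, whose spread may be technical, so they do not bound an effect across separate cultures. The knockdown was read as NCOA1 RNA, and SRC-1 protein was not measured on these arrays. With glucose the log2 differences of the 50 genes ran from -0.094 to 0.16 and their 95% intervals from -0.36 to 0.39. Without glucose they ran from -0.12 to 0.10, with intervals from -0.38 to 0.31. Averaged over media they ran from -0.053 to 0.075, with intervals from -0.23 to 0.21. All 50 intervals thus lay within 1.5-fold (0.585 on the log2 scale) in either direction for each of these contrasts, and 49 of 50 did so for the interaction.

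**Figure D3:**
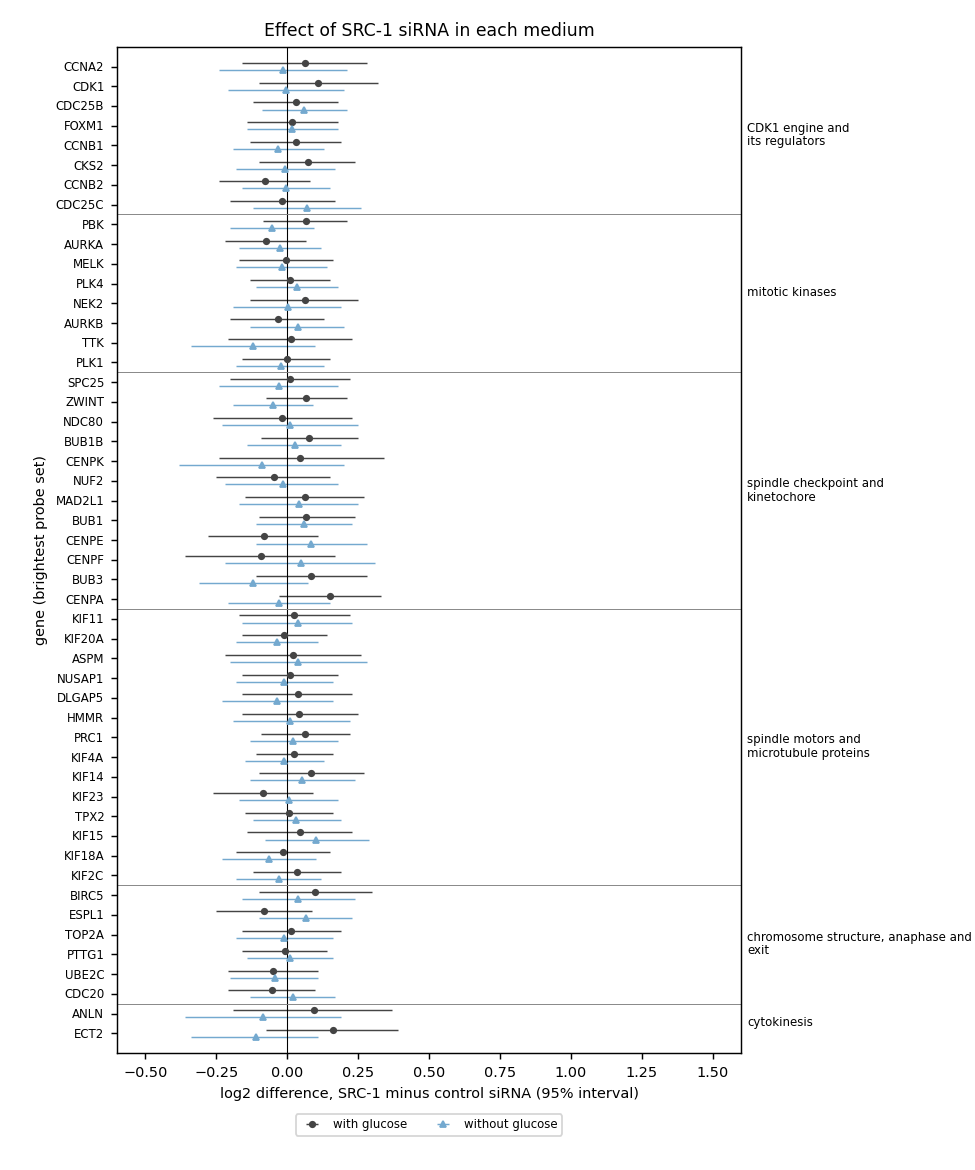
Log2 difference between SRC-1 and control siRNA arrays for each of the 50 genes (points) with 95% intervals (lines), in grey circles with glucose and blue triangles without. The x axis has the same range as in the plot of glucose differences, and every interval includes 0.

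The genes nearest to a difference between siRNAs were few and small in effect. CENPA had the smallest p with glucose, where SRC-1 siRNA arrays (9.11 and 9.16) lay above control arrays (9.02 and 8.96), a difference of 0.15 (SE 0.078, adjusted p = 0.918). ECT2 followed there, with 11.67 and 11.61 above 11.44 and 11.53 (0.16, SE 0.10, adjusted p = 0.944). Without glucose ECT2 leaned the other way, at -0.11 (SE 0.10, adjusted p = 0.999). It therefore had the largest interaction in size, 0.27 (95% interval -0.054 to 0.59, adjusted p = 0.999), which is the 1 interval that reached past 1.5-fold.

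BUB3 had the smallest p without glucose (-0.12, SE 0.084, adjusted p = 0.999), with 11.69 and 11.85 under SRC-1 siRNA and 11.81 and 11.97 under control siRNA, and these arrays overlapped. KIF15 (0.10) and TTK (-0.12) came next there. TTK had 8.78 and 8.99 under SRC-1 siRNA and 9.03 and 8.98 under control siRNA, and in both genes the spread between arrays of a group was as large as the difference. Averaged over media the smallest p belonged to KIF15 (0.075, SE 0.056), BUB1 (0.063, SE 0.053), KIF14 (0.068, SE 0.058) and AURKA (-0.051, SE 0.044), each with an adjusted p of 1. After ECT2, the interaction was largest in evidence for BUB3 (0.20, SE 0.12), CENPA (0.18, SE 0.11) and ESPL1 (-0.15, SE 0.10), none of which had an unadjusted p below 0.124.

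The 94 probe sets allowed the glucose difference to be read more than once for many genes. In the average 73 of the 94 were called higher and 1 lower, adjusted over all 41091 probe sets. Of those 41091, dim ones included, 17.3% were called higher and 15.9% lower. Of the 83 member probe sets above the filter, 69 were higher and 0 lower. The share over all probe sets above the filter was not computed. Of the 11 below it, 4 were higher and 1 was lower. The lower one was a dim probe set of BUB1 (mean signal 4.64, difference -0.38, adjusted p = 0.0149), while its 2 probe sets above the filter differed by 0.38 and 0.32. For 24 genes 2 or more probe sets passed the filter, and their differences spanned a median of 0.14 log2 units. CDK1 was uniform, at 0.83, 0.96, 0.96 and 0.82 over 4 probe sets, and TOP2A gave 0.50 and 0.43. CCNA2 gave 1.06 and 0.71, both called, and BIRC5 gave 0.73, 0.47, 0.87 and 0.30, all called.

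Other genes were less uniform. ASPM spanned the most, with 0.82 on its brightest probe set (9.95 to 10.10 without and 10.69 to 10.97 with glucose), 1.28 on the next (5.32 to 5.48 against 6.10 to 7.09) and 0.16 on the dimmest (adjusted p = 0.175). CCNB1 gave 0.52 and 0.24, both called in the average, but only its _s_at probe set was called with control siRNA, the other at 0.19 (adjusted p = 0.125). KIF23 gave 0.45 and 0.27, and with the second probe set standing for it neither single-siRNA call was made (0.29, adjusted p = 0.112 with control siRNA, and 0.25, adjusted p = 0.166 with SRC-1 siRNA). AURKB gave 0.41 and, on a dimmer probe set, 0.11 (adjusted p = 0.202). In 3 genes the signs were opposite. BUB3 gave 0.26 on its brightest probe set (adjusted p = 0.0146 among probe sets) but 0.013, 0.026, -0.057 and -0.027 on the other 4 above the filter, none of them called. Its second probe set had 11.57 and 11.58 against 11.53 and 11.56 with control siRNA and 11.48 and 11.53 against 11.56 and 11.56 with SRC-1 siRNA, so the groups overlapped. CDC25C gave 0.22 and -0.12, the latter not called, and KIF2C gave -0.032 and 0.066, neither called. Averaging a gene's probe sets ended the call of BUB3 (0.043, adjusted p = 0.391) and of CDC25C (0.053, adjusted p = 0.516).

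**Figure D4:**
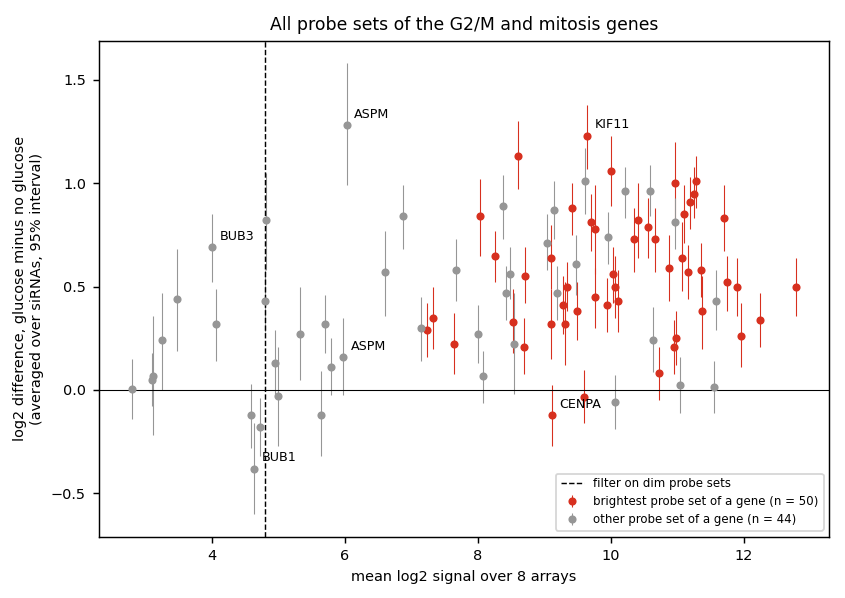
Averaged log2 glucose difference with its 95% interval (y axis) against mean log2 signal over the 8 arrays (x axis) for all 94 probe sets, red for the brightest of a gene and grey for the others, with the filter at 4.80 as a dashed line. Most points above the filter lie above 0, and the labelled probe sets of ASPM (1.28 and 0.16) show the widest spread within a gene.

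Other genes of the same machinery were described from textbook lists, which were also chosen with earlier results of these data known. Of 33 further centromere and kinetochore genes tested 27 were higher and 1 was lower with glucose in the average (median 0.58), where 29.5% and 26.2% of all genes were, and the smallest p belonged to SPC24 (1.03), DSN1 (1.10), HJURP (0.94) and CENPW (0.89). HJURP, the chaperone that deposits CENPA, rose (SE 0.048, adjusted p = 1.03e-06), while CENPA itself was not called. The lower one was MIS12, a kinetochore scaffold and a binding partner of DSN1 (-0.85, SE 0.072, adjusted p = 1.69e-05). Of 19 condensin and cohesin genes 16 were higher and 1 was lower (median 0.48), with NCAPH (1.06), NCAPD3 (0.99) and CDCA5 (0.91) among those with the smallest p. Of 18 further spindle and cytokinesis genes 14 were higher and 3 were lower (median 0.56), among them SPAG5 (1.10) and STMN1 (1.18), which act on spindle microtubules.

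The anaphase-promoting complex had 8 of 16 genes higher and 3 lower in the average, with a median of 0.13, where 29.5% of all genes tested were higher and 26.2% lower. With control siRNA alone 4 of the 16 were higher and 3 lower, where 23.6% and 21.6% of all genes were, and with SRC-1 siRNA 7 and 3, where 24.6% and 20% were. ANAPC7 rose by 0.70 (SE 0.056) and FBXO5, the inhibitor EMI1, by 0.44 (SE 0.059), while ANAPC10 fell by 0.47, CDC16 by 0.27 and ANAPC16 by 0.29. Of 17 further regulators of mitotic entry 11 were higher and 4 were lower (median 0.29). CDC25A, a phosphatase of both S phase and mitosis, rose by 1.78 (SE 0.087), and the kinase MASTL, which restrains the phosphatase PP2A, by 1.16 (SE 0.062). The opposing kinase WEE1, which inhibits CDK1, rose as well, from 8.91 and 9.05 to 9.71 and 9.65 with control siRNA and from 8.96 and 8.98 to 9.74 and 9.65 with SRC-1 siRNA (difference 0.71, SE 0.052, adjusted p = 7.70e-06).

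Of 14 genes of the MuvB, DREAM and p53-p21 regulators 10 were higher and 3 were lower with glucose in the average (median 0.44). Over all genes tested 29.5% were called higher and 26.2% lower there. MYBL2, the B-MYB partner of MuvB, had signals of 8.34 and 8.29 against 9.02 and 9.04 with control siRNA and of 8.36 and 8.26 against 8.79 and 9.08 with SRC-1 siRNA, a rise of 0.67 (SE 0.069). CDKN1A, the inhibitor p21, went the other way, from 10.84 and 10.90 to 10.52 and 10.53 with control siRNA and from 10.89 and 10.85 to 10.58 and 10.55 with SRC-1 siRNA. It fell by 0.33 in the average (SE 0.044, adjusted p = 0.000272), and the groups did not overlap. The MuvB subunit LIN37 fell by 0.85 (SE 0.050), while the repressor E2F8 rose by 2.26 (SE 0.064), the pocket protein RBL1 by 1.32 (SE 0.098) and the E2F partner TFDP1 by 0.83 (SE 0.056).

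The G1/S and DNA replication genes, which act earlier in the cycle, were set beside the 50 genes. Of 39 tested, 37 were higher and 0 were lower with glucose in the average, where 29.5% and 26.2% of all genes were. Their median was 1.06 against 0.53. At least 2-fold rises were called in 21 of these 39, among them MCM10 (2.0) and MCM6 (1.96), and in 4 of the 50 G2/M and mitosis genes. Such rises were called in 2.21% of all genes tested. The difference between the lists was not tested. No gene of these 7 further lists was called in the averaged effect of SRC-1 siRNA or in the interaction (0.0294% and 0% of all genes tested were).

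**Figure D5:**
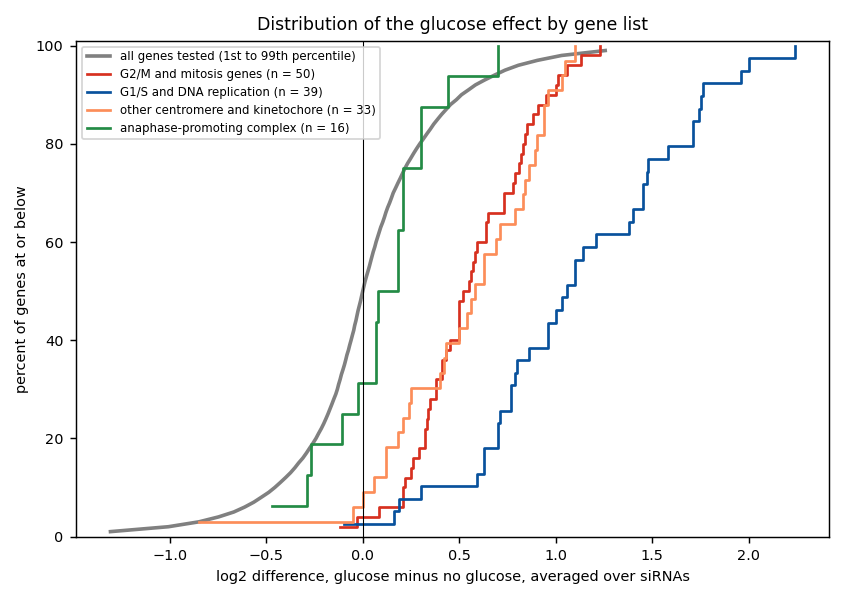
Cumulative share of genes (y axis, percent) at or below a given averaged log2 glucose difference (x axis) for all genes tested (grey) and for 4 lists. The median is 0.53 for the 50 G2/M and mitosis genes (red), 0.58 for other centromere and kinetochore genes (orange), 0.13 for the anaphase-promoting complex (green) and 1.06 for G1/S and DNA replication (blue).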

How the data were processed

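RNA of A549 cells in 4 groups was read on 8 Affymetrix 3' arrays, 2 per group. The authors deposited 1 table of log2 signal per probe set, which was used as deposited. That the logarithm has base 2 is inferred, and the authors' background correction, probe summary and normalization are not given in the sources used here. Biotinylated cRNA was made by the standard Affymetrix procedure, per the labels' protocols. Detection calls were not used here. The labels name biological replicates but not separate cultures, so p-values cover only array-to-array spread, which may be technical, and precision is limited by how few arrays there are.

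Of 54675 probe sets, 41091 have 1 gene in the platform annotation. The brightest probe set of each gene was kept if its mean reached the 40th percentile (log2 4.80), which left 13584 genes. All 8 arrays entered 1 limma 3.58.1 fit in R 4.3.3 with a mean per group (4 residual and 4.35 prior degrees of freedom), moderated two-sided tests and Benjamini-Hochberg adjustment over all genes, threshold 0.05. Intervals are 95% intervals. Probe sets were tested in a separate fit of all 41091. The fit was also run on simulated data with independent normal noise and few changed genes, unlike the glucose contrasts here. No result here rests on that run.

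The 50 genes, the further lists and the alternatives were chosen with earlier results of these data known. Values on every array are given for the 8 largest and 4 smallest averaged glucose differences, the 4 smallest p of each SRC-1 contrast, 8 well-known genes, genes with probe sets of opposite sign, and WEE1, MYBL2 and CDKN1A. From other lists up to 4 genes with the smallest p are named. MIS12, CDC16 and ANAPC16 were chosen after their values were seen. RNA quality was compared by exact permutation tests over arrays. No scan date or batch is given in the sources used here.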

Additional observations from a re-analysis of the deposited data

How the results depend on the processing

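With a threshold of 1.5-fold added, the count of the 50 genes called higher with glucose was 21 with control siRNA, 22 with SRC-1 siRNA and 21 in the average (14.8%, 14.8% and 14.5% of all genes were called in either direction). The other alternatives kept each count within 1.5 times. They changed the normalization (quantile), the centring (array medians), the filter (none, or the 60th percentile), the probe set (mean per gene), the prior (following mean expression), the array weights or the groups in the fit. Calls in either direction numbered 41 to 48 (control siRNA), 41 to 46 (SRC-1 siRNA) and 45 to 47 (average), all of them higher except CENPA, called lower with control siRNA under the 60th percentile filter, the mean of probe sets and the prior, and 0 for the SRC-1 effects and the interaction. Leaving out each array in turn gave 40 to 43, 39 to 44 and 47 to 48 calls in either direction (the 40 and the 48 each include CENPA called lower, without the second control siRNA array without glucose), and 0 to 0 for the SRC-1 effects and the interaction. Without probe sets ending in _s_at or _x_at, 36 of the 50 genes could be tested, of which 31, 32 and 34 were called. There BUB3 turned to -0.094 with SRC-1 siRNA and -0.027 in the average, since another probe set stands for it. Deviations of same-numbered arrays correlated at -0.096 to 0.12 over all genes and at -0.34 to 0.40 over the 50, so the numbers were not taken to pair the arrays. A replicate block gave 43, 44 and 47 calls with glucose, ending that of CENPE with SRC-1 siRNA (adjusted p = 0.0595), and 0 for the SRC-1 effects and the interaction. No background was measured, and a difference that starts at a dim signal may be compressed.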
